A study of Arabidopsis thaliana with 24 samples.

Results

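The transcripts of 10 root hair genes were followed in the roots of wild-type (WT) Arabidopsis thaliana and of the clf-28 mutant, and then in 3 other tissues. The 10 were taken as a named list out of 33540 gene IDs in the deposited table. They were the transcription factor genes RHD6, RSL1, RSL2 and RSL4 and the growth and cell wall genes PRP1, PRP3, EXPA7, EXPA18, LRX1 and COW1. Each had a table line of its own, and all 10 passed the filter on low values. WT was Col-0, and clf-28 is a mutant of the same background in CLF (CURLY LEAF), the gene of a histone methyltransferase of the Polycomb group. Seedlings aged 2 weeks on MS plates gave the roots and the shoots, and soil-grown plants aged 5 weeks gave inflorescences and siliques, all in long days. Both genotypes had 3 biological replicates of each tissue (8 groups), measured by strand-specific RNA-seq of total RNA. Levels are in FPKM, the number of fragments divided by transcript length and by the size of the library. The RNA came from whole organs, so fewer cells of a type and less RNA per cell cannot be told apart.

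A root hair is a long extension of 1 kind of root epidermal cell. In these cells the basic helix-loop-helix factors RHD6 and RSL1 start hair formation and act above the related factors RSL2 and RSL4, which drive hair growth. Growth happens at the tip and needs membrane lipid turnover, wall loosening and new wall proteins, the work of the other genes described here. The Polycomb-group enzyme encoded by CLF places a repressive methyl mark on histone H3 at its target genes.

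Read depth per library is unknown. Summed FPKM, which is no measure of depth, ran from 849519 to 1334840, and between 18532 and 20840 lines reached 1 FPKM. In clf-28, replicate 3 of shoots and replicate 3 of siliques, as labelled, each matched the other's tissue, with mean Spearman correlations across genes of 0.782 and 0.790 with their own groups against 0.978 and 0.985 with the other. They were left out, which leaves 22 libraries and 2 replicates in each of those clf-28 groups, and values with both as labelled are given where a result changes. In WT roots replicate 1 the chloroplast transcripts summed to 6737 FPKM, against 47 to 164 FPKM in the other root libraries, and 6 of the 10 root hair genes had their lowest root value there. The CLF transcript itself ran from 8.09 to 14.2 FPKM in WT roots and from 7.42 to 8.09 FPKM in clf-28 roots, but from 7.31 to 8.25 FPKM in WT inflorescences and from 12.1 to 19.5 FPKM in clf-28 inflorescences. In shoots it was at 6.93 to 8.84 FPKM in WT and 6.81 to 7.93 FPKM in clf-28, and in siliques at 6.05 to 6.44 FPKM and 11.9 to 19.0 FPKM. The transcript was thus present in every mutant library, and its level gives no check of the genotype labels. Of the root markers, NRT2.1 was nearly absent from roots, at 0.10 to 0.64 FPKM, while BGLU23, IRT1 and NRT2.1 together summed to at least 5107 FPKM in every root library and at most 940.9 FPKM in WT shoots.

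The sequence upstream of the wall genes holds a feature that the choice of genes did not use. The root hair element is a short sequence described upstream of hair-cell genes and bound by RSL4, and its published form was derived from genes that include some of these, so its presence is not independent. It was found, on either strand, in the 300 bases before the gene start of 5 of the 10 genes, against 251 of 27443 such windows genome-wide (0.915%). The 5 windows are shown in the direction of each gene, 5′ to 3′, from RefSeq's TAIR10.1 build, because they carry this element. Its bases are in capitals. PRP1 is read from chr1:20504601-20504900, PRP3 from chr3:23182422-23182721, LRX1 from chr1:4069692-4069991, EXPA7 from chr1:4276205-4276504 and EXPA18 from chr1:23331263-23331562, all on the plus strand.
PRP1: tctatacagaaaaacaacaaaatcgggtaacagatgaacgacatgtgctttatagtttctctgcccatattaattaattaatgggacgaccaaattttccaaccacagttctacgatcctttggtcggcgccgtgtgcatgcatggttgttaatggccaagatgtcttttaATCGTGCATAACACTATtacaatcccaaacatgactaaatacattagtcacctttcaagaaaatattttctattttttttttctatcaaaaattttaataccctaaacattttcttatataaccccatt
PRP3: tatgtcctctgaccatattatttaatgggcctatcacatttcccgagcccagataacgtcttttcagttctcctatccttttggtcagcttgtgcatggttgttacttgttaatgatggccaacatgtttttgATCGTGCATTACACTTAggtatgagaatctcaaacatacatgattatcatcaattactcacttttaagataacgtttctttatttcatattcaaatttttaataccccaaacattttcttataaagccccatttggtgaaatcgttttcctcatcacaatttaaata
LRX1: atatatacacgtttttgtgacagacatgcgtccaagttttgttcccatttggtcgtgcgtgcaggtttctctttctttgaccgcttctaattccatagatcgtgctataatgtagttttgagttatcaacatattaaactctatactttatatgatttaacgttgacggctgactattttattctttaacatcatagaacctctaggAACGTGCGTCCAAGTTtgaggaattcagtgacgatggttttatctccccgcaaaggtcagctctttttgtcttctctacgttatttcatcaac
EXPA7: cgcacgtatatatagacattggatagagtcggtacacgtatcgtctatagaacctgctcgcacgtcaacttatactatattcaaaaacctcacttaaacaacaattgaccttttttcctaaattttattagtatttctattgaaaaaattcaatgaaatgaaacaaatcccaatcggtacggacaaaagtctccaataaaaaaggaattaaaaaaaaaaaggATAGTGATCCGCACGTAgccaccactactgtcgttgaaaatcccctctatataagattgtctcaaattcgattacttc
EXPA18: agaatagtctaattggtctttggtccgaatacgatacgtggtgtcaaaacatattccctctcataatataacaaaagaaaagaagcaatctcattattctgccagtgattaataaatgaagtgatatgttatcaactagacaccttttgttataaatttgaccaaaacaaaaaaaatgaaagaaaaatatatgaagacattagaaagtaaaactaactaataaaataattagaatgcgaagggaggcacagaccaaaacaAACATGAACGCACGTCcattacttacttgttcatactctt

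The element starts 129 bases before the gene in PRP1, 167 in PRP3, 93 in LRX1, 78 in EXPA7 and 40 in EXPA18. It lies on the minus strand in PRP1, PRP3 and LRX1 and on the plus strand in the expansin genes, and the window of EXPA18 also holds part of the neighbouring gene AT1G62978. No match was found in the windows of COW1, RHD6, RSL1, RSL2 or RSL4, which says only that these letters are not in those 300 bases. The palindrome CACGTG, a common site of basic helix-loop-helix factors, was in 0 of the 10 windows and in 7.09% of all windows, and its core CACG was in 6 of 10 against 50.5%. Of motifs linked in the literature to Polycomb recruitment, the telobox AAACCCTA was in 0 of 10 windows against 5.21%, and GAGAGA in 3 of 10 against 23.6%. All of these searches took both strands, and CACG lies within CACGTG and within every root hair element shown. Each window with the element therefore holds CACG by definition. A match is a description of the sequence and not a measured binding site.

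All 10 genes were root transcripts. Between WT roots and WT shoots, inflorescences and siliques, limma on log2(FPKM + 1), with p adjusted by the Benjamini-Hochberg method over 23847 genes and a threshold of 0.05, found 10 of 10 higher in roots each time. Of all genes tested, 31.8%, 27.1% and 28.3% were higher in roots in those comparisons. The 10 were listed as root hair genes, and all but 2 of them passed the filter on low values only through root libraries. Their higher level in roots is therefore a description of the list and not an independent finding. The median difference over the 10 genes was 3.36, 3.88 and 3.78 on the log2 scale. In order of mean level in WT roots, PRP3 led at 77.5 ± 18.1 FPKM (SD, n = 3), followed by EXPA7 at 34.2 ± 4.64, LRX1 at 27.6 ± 9.29, EXPA18 at 24.1 ± 3.16, PRP1 at 22.2 ± 11.1 and COW1 at 13.3 ± 2.01 FPKM. RSL4 at 9.19 ± 0.847, RHD6 at 8.63 ± 1.52, RSL2 at 6.33 ± 0.260 and RSL1 at 1.96 ± 0.293 FPKM were the lowest, so the 4 factor genes lay below the other 6 in mean. From EXPA7 down to COW1, and between RSL4 and RHD6, neighbours in this order overlapped in their values. PRP3 stood above EXPA7, COW1 above RSL4, RHD6 above RSL2 and RSL2 above RSL1 without overlap.

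**Figure D1:**
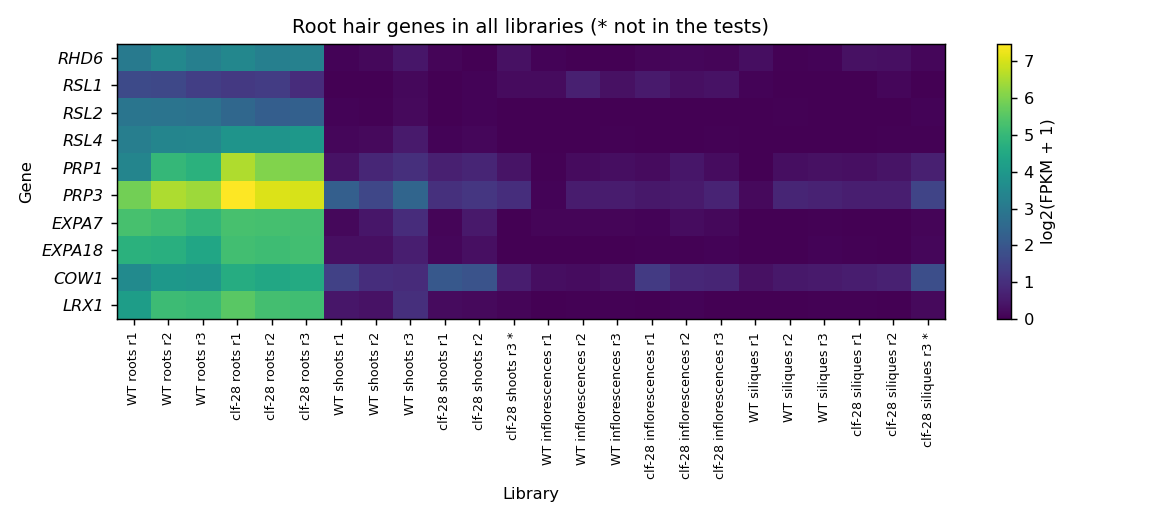
Heat map of log2(FPKM + 1) for the 10 root hair genes (rows) in all 24 libraries (columns), with colour from dark (0) to yellow (highest). The 6 root libraries on the left stand out in every row, and faint signal appears for PRP3 and COW1 in shoots; the 2 libraries marked with an asterisk were not used in the tests.

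Outside roots, 8 of the 10 genes stayed below 1 FPKM in all 16 libraries used. The exceptions were PRP3, which reached 4.44 FPKM in WT shoots replicate 3, and COW1, which reached 3.13 FPKM in clf-28 shoots replicate 1. For 8 of the 10 genes the highest value outside roots was in WT shoots replicate 3. RSL1 had the smallest gap, with 0.948 FPKM in its lowest root library and 0.565 FPKM in WT inflorescences replicate 2. In every gene the 2 root groups ranked first, and WT shoots came next in 7 of the 10.

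In roots of clf-28 the set did not move as a block. Of the 10 genes, 5 were higher (RSL4, PRP1, PRP3, EXPA18 and COW1), 2 were lower (RSL1 and RSL2) and 3 did not pass the test (RHD6, EXPA7 and LRX1). Among all genes tested, 6.28% were higher and 2.52% lower. The 10 were chosen with earlier results of these data known, so setting their counts against all genes is a description and not an independent comparison. The median change over the 10 was 0.56, against -0.01 over all genes, on the log2(FPKM + 1) scale. Counting genes whose WT and clf-28 root values did not overlap gave 6 higher and 2 lower of the 10, against 18.0% in each direction among all genes. Without the WT replicate 1 libraries 5 of the 10 were higher and 1 lower, where 15.8% and 9.96% of all genes were. With all 24 libraries as labelled 3 were higher and 1 lower, against 3.48% and 0.66% of all genes. With a pseudocount of 0.1 FPKM in place of 1 only PRP1 passed in the fit over all tissues. In a fit of the root libraries alone with that pseudocount 4 were higher (RSL4, PRP3, EXPA18 and COW1) and 1 lower (RSL2). The share of all genes that passed with this pseudocount was not counted, so these counts have no background.

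**Figure D2:**
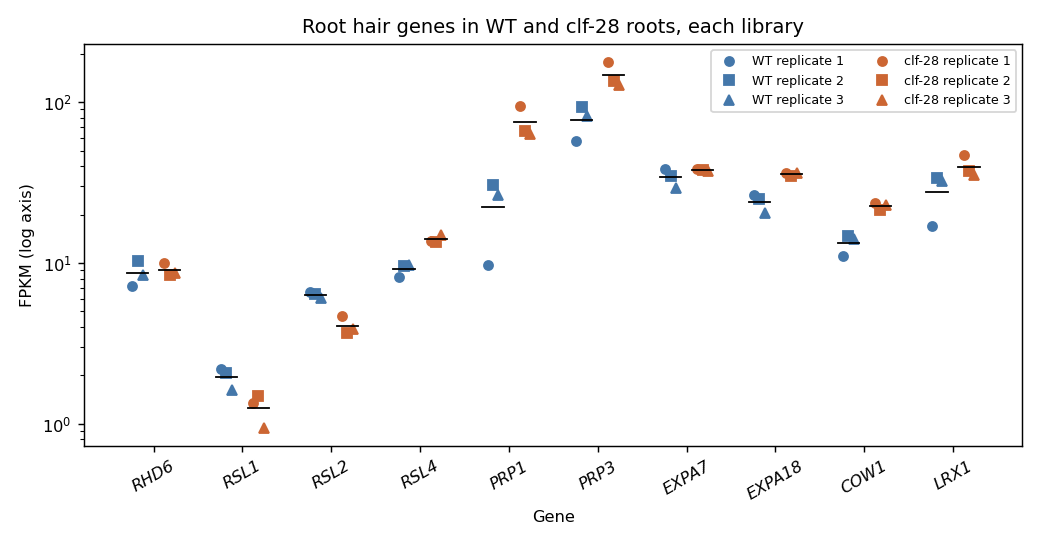
FPKM on a log axis of each root hair gene in the 3 WT (blue) and 3 clf-28 (orange) root libraries, with marker shape for the replicate and a black line for the group mean. RSL2 and RSL1 sit lower in clf-28, RSL4, PRP1, PRP3, EXPA18, COW1 and LRX1 sit higher without overlap, and RHD6 and EXPA7 overlap.

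The upstream pair of factors showed no rise. RHD6 (AT1G66470, chr1:24795214-24797015, plus strand), which starts hair formation, was at 7.22, 10.2 and 8.43 FPKM in the WT root libraries and 9.94, 8.37 and 8.67 FPKM in clf-28. The groups overlapped, and the change was 0.06 (95% interval -0.19 to 0.31, adjusted p = 0.905). RSL1 (AT5G37800, chr5:15036066-15037884, plus strand), its close relative, was at 2.18, 2.06 and 1.63 FPKM in WT and 1.34, 1.49 and 0.948 FPKM in clf-28, so every clf-28 library lay below every WT library. It fell by 0.39 (SE 0.12, adjusted p = 0.0486), a call lost in 16 of the 22 fits that left out 1 library and with all 24 libraries as labelled (adjusted p = 0.0859). The coding sequences of the pair share 80.2% of aligned bases with a longest identical run of 43 bases, and how the authors treated reads that match both is not given in the sources used here.

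The downstream pair moved in opposite directions. RSL2 (AT4G33880, chr4:16239363-16241169, minus strand), a factor for hair elongation, was at 6.56, 6.37 and 6.05 FPKM in WT roots and 4.69, 3.66 and 3.90 FPKM in clf-28. It fell by 0.53 (SE 0.08, adjusted p = 0.000223), with no overlap between the groups. RSL4 (AT1G27740, chr1:9654475-9656089, plus strand), whose dose is known to set hair length, was at 8.22, 9.60 and 9.76 FPKM in WT and 13.7, 13.6 and 15.0 FPKM in clf-28. It rose by 0.57 (SE 0.10, adjusted p = 0.00103), and its lowest clf-28 library lay above its highest WT library. Both calls stood in all 22 fits that left out 1 library, with adjusted p up to 0.00279 for RSL2 and 0.00901 for RSL4. Coding identity within this pair was 72.9%, with a longest identical run of 17 bases.

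The proline-rich wall proteins gave the widest changes. PRP1 (AT1G54970, chr1:20504901-20506504, plus strand), a structural protein of hair cell walls, was at 9.65, 30.6 and 26.3 FPKM in WT roots and 94.5, 65.8 and 63.8 FPKM in clf-28. All clf-28 libraries lay above all WT libraries, and PRP1 rose by 1.83 (SE 0.29, adjusted p = 0.000424), or 3.55-fold on the log2(FPKM + 1) scale. WT replicate 1 was far below the other 2 WT libraries, and without it the change was 1.34 (adjusted p = 0.00012). PRP3 (AT3G62680, chr3:23182722-23184042, plus strand), its relative with 84.1% coding identity and a longest identical run of 33 bases, was at 57.7, 93.1 and 81.8 FPKM in WT and 177, 135 and 128 FPKM in clf-28. It rose by 0.93 (SE 0.23, adjusted p = 0.0149), again without overlap. This call was lost without WT roots replicate 1 (0.73, adjusted p = 0.0629), without clf-28 roots replicate 1 (0.79, adjusted p = 0.0912) and with all 24 libraries as labelled (adjusted p = 0.0599). In the deposited table the PRP3 locus spans a bundle shared by 79 lines, so its position here is that of RefSeq.

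Of the 2 expansins, which loosen walls, only EXPA18 passed the test, and the difference between their changes was not tested. EXPA7 (AT1G12560, chr1:4276505-4277969, plus strand) was at 38.5, 34.8 and 29.3 FPKM in WT roots and 38.1, 37.6 and 37.1 FPKM in clf-28, with overlapping groups and a change of 0.14 (95% interval -0.19 to 0.47, adjusted p = 0.738). EXPA18 (AT1G62980, chr1:23331563-23333246, plus strand) was at 26.6, 25.1 and 20.5 FPKM in WT and 36.0, 34.6 and 36.3 FPKM in clf-28. It rose by 0.56 (SE 0.11, adjusted p = 0.00253), without overlap, and the call stood in all 22 fits that left out 1 library. Each expansin gene overlaps a gene on the other strand, by 23 bases for EXPA7 and 46 for EXPA18. Those neighbours were at 0.01 to 0.23 FPKM and at 0 FPKM in the root libraries.

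LRX1 and COW1 complete the set. LRX1 (AT1G12040, chr1:4069992-4072681, plus strand), a leucine-rich repeat extensin that shapes the hair wall, was at 16.9, 33.6 and 32.3 FPKM in WT roots and 46.6, 37.1 and 35.2 FPKM in clf-28. The groups did not overlap, but the difference of 0.56 (95% interval 0.13 to 0.99) did not pass the test (adjusted p = 0.109), and it was 0.25 without WT roots replicate 1. COW1 (AT4G34580, chr4:16515102-16518746, plus strand), a phosphatidylinositol transfer protein needed for tip growth, was at 11.0, 14.8 and 14.2 FPKM in WT and 23.8, 21.3 and 22.9 FPKM in clf-28. It rose by 0.73 (SE 0.15, adjusted p = 0.00462), with no overlap. With all 24 libraries as labelled the change in roots was the same 0.73 but did not pass (adjusted p = 0.327), and its clf-28 shoot values would include 0.510 FPKM beside 3.13 and 2.79, and its clf-28 silique values 2.48 FPKM beside 0.519 and 0.599. Set against the upstream element, 3 of the 5 genes that hold it were higher and 0 lower, while 2 of the 5 without it were higher and 2 lower, a description of 10 genes with no test.

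Ratios within a library do not depend on its scaling. The pairs were chosen after their values were seen, so these are descriptions. The ratio of RSL4 to RSL2 was 1.25, 1.51 and 1.61 in the WT root libraries and 2.91, 3.71 and 3.84 in clf-28. That of EXPA18 to EXPA7 was 0.691, 0.721 and 0.701 in WT and 0.945, 0.919 and 0.980 in clf-28. In both pairs WT roots replicate 1 was the lowest library but lay close to the other WT libraries. PRP1 to PRP3 was 0.167, 0.329 and 0.322 in WT and 0.535, 0.486 and 0.497 in clf-28, with WT replicate 1 apart. RHD6 to RSL1 was 3.31, 4.96 and 5.18 in WT and 7.39, 5.62 and 9.15 in clf-28, and RSL4 to RHD6 was 1.14, 0.938 and 1.16 in WT and 1.38, 1.62 and 1.73 in clf-28. In all 5 pairs the WT and clf-28 ratios did not overlap, but the share of all gene pairs that do so was not counted. The pairs are not independent, since RSL4 and RHD6 each recur. An exact permutation test over the root libraries gave p = 0.1 for each pair, the smallest value it can give with so few libraries.

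**Figure D3:**
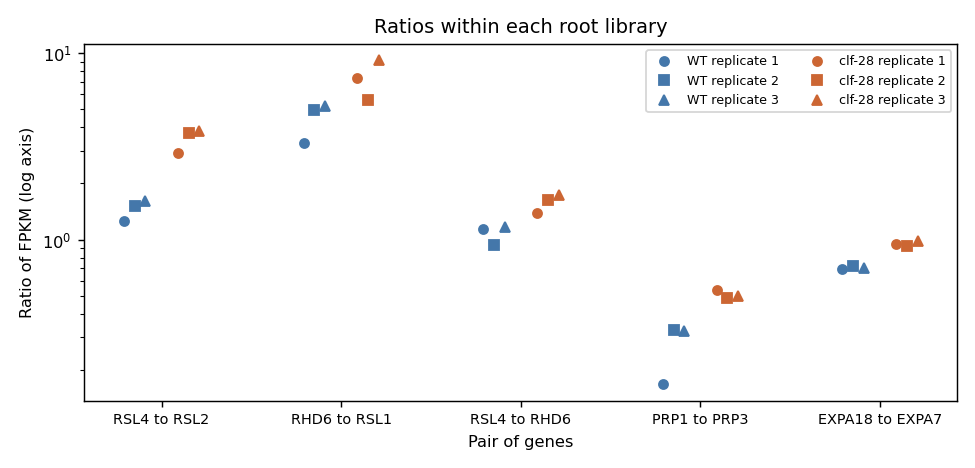
Ratio of FPKM between pairs of root hair genes within each root library, on a log axis, for 3 WT (blue) and 3 clf-28 (orange) libraries. In each of the 5 pairs, chosen after their values were seen, every clf-28 ratio lies above every WT ratio.

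The changes in roots were then set against those elsewhere, by testing the clf-28 effect in roots minus its mean in the other 3 tissues. RSL4 (0.62, adjusted p = 0.00296), PRP1 (1.73, adjusted p = 0.0043), PRP3 (1.17, adjusted p = 0.0129) and EXPA18 (0.60, adjusted p = 0.00695) had a higher effect in roots, and RSL2 a lower one (-0.51, adjusted p = 0.00231). Those are 4 and 1 of 10, against 5.00% and 1.89% of all genes. The other 5 genes did not pass this test. With a pseudocount of 0.1 FPKM all 5 of these calls were lost, with adjusted p from 0.204 for RSL4 to 0.356 for RSL2, and PRP3 also lost its call with all 24 libraries as labelled (adjusted p = 0.0684). COW1 differed by 0.16 (95% interval -0.23 to 0.54), and it was also higher in shoots and inflorescences. Outside roots 8 of the 10 genes stayed below 1 FPKM, where the pseudocount of 1 FPKM holds log2 changes near 0.

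**Figure D4:**
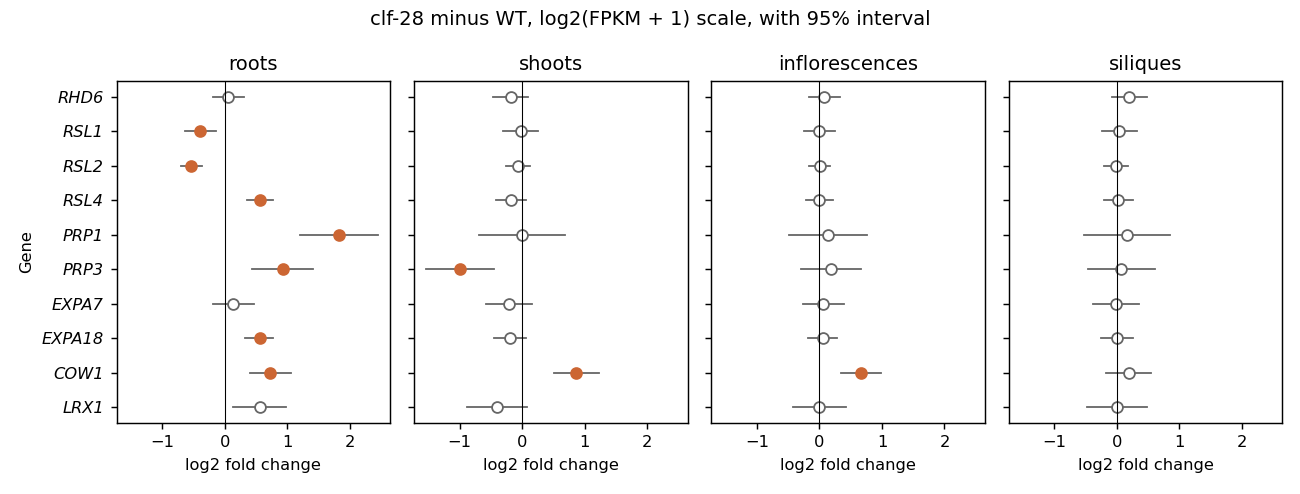
Change in clf-28 relative to WT (log2 scale) of each root hair gene in 4 tissues, with points for the estimate, lines for the 95% interval and filled points where the adjusted p was under 0.05. Filled points number 7 in roots, 2 in shoots, 1 in inflorescences and 0 in siliques.

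In shoots, with 2 clf-28 libraries, 1 of the 10 genes was higher and 1 lower, against 6.50% and 4.11% of all genes. COW1 was at 1.72, 0.987 and 0.879 FPKM in WT shoots and 3.13 and 2.79 FPKM in clf-28, and rose by 0.87 (SE 0.17, adjusted p = 0.00308). Both clf-28 values exceeded all WT values, but the call was lost without clf-28 shoots replicate 1 (adjusted p = 0.0568) and with 24 libraries as labelled (0.41, adjusted p = 0.496). PRP3 was at 3.77, 2.03 and 4.44 FPKM in WT and 1.06 and 1.26 FPKM in clf-28, and fell by 0.99 (SE 0.26, adjusted p = 0.0184). That call was lost without any 1 of WT shoots replicates 1 and 3 or clf-28 shoots replicates 1 and 2 (highest adjusted p = 0.163). Sums of root markers were also lower in the clf-28 shoot libraries. The 3 root organ markers, mostly BGLU23, summed to 323.7 to 940.9 FPKM in WT shoots and 225.9 to 243.4 FPKM in clf-28 shoots, and none passed the test. The 4 root endodermis markers summed to 28.6 to 47.0 FPKM and 20.2 to 20.8 FPKM, with 3 of those 4 lower by the test. Within WT shoots both sums were highest in replicate 1, whereas PRP3 was highest in replicate 3. The part of the root markers in the PRP3 difference was not tested.

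In inflorescences COW1 alone passed, 1 of 10 higher and 0 lower against 1.70% and 2.18% of all genes. It was at 0.218, 0.195 and 0.260 FPKM in WT and 1.42, 0.772 and 0.727 FPKM in clf-28, without overlap, and rose by 0.67 (SE 0.15, adjusted p = 0.0191). The call was lost with 24 libraries as labelled (adjusted p = 0.589), with quantile normalization (0.47, adjusted p = 0.118), with a pseudocount of 5 FPKM (0.19, adjusted p = 0.192), without WT inflorescences replicate 2 (adjusted p = 0.0506) and without clf-28 inflorescences replicate 1 (adjusted p = 0.0713). In siliques, where 12.2% of all genes were higher and 16.4% lower by limma, 0 of the 10 passed, also at an unadjusted p under 0.05 (0 of 10), and their changes ran from -0.02 to 0.20. The highest silique value of any of the 10 was 0.701 FPKM (PRP3 in WT), and in inflorescences only COW1 reached 1 FPKM. Below 1 FPKM the pseudocount of 1 FPKM holds log2 changes near 0, so these counts cannot show that the genes were unchanged. COW1 was at 0.262, 0.390 and 0.459 FPKM in WT siliques and 0.519 and 0.599 FPKM in clf-28, a difference of 0.19 (95% interval -0.17 to 0.55).

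A wider list of 56 other root hair genes was read in the same fit. It too was chosen with earlier results of these data known, so its counts against all genes are descriptions. Of these, 54 had their own table line (XTH26 and RHS8 were merged with neighbours) and 53 were tested, as RSL3 fell below the filter. In roots 10 of the 53 were higher and 0 lower by limma, against 6.28% and 2.52% of all genes, with a median of 0.23. The 10 include RSL5, which passed the filter on low values only through clf-28 root libraries. At an unadjusted p under 0.05, 20 were higher and 1 lower, against 11.6% and 9.11% of all genes. With a pseudocount of 0.1 FPKM in the fit over all tissues 2 of the 53 passed (RSL5 and RHS18), with the share of all genes not counted. In the list named hair cell wall and surface, a heading and not a statement on each product, 8 of 15 were higher. All 15 estimates were above 0 and the median was 0.59. RHS18, a peroxidase of root hairs, was at 12.0, 12.2 and 10.5 FPKM in WT roots and 30.1, 29.9 and 29.7 FPKM in clf-28 (1.30, adjusted p = 7.51e-08), the largest change of the list and with tight groups. RHS15 (0.72), MRH6 (0.57), the pectin methylesterase RHS12 (0.49) and the receptor-like kinase RHS10 (0.49) were higher too, with the call of RHS10 lost without clf-28 roots replicate 1 or 2 (highest adjusted p = 0.0844). XTH14 (0.90), an enzyme that cuts and rejoins xyloglucan, RHS13 (0.80) and PRPL1 (0.65) were higher with adjusted p of 0.0157, 0.0372 and 0.05. Of the 22 fits that left out 1 library, XTH14 lost its call in 3, RHS13 in 5 and PRPL1 in 18, and all 3 lost it without WT roots replicate 1. With all 24 libraries as labelled RHS13 (adjusted p = 0.0717) and PRPL1 (adjusted p = 0.134) also lost their calls. Of the rest, SHV3 (1.09), CSLD3 (0.53), RHS19 (0.48) and PER7 (0.26) did not pass, and neither did AGP3 (0.59) or COBL9 (0.18). Still, SHV3 was at 86.9, 70.2 and 81.2 FPKM in WT roots and 171, 170 and 170 FPKM in clf-28. CSLD3 was at 39.1, 38.1 and 43.5 FPKM and 58.4, 59.4 and 57.7 FPKM. In 14 of the 15 genes all clf-28 root values lay above all WT values, against 18.0% of all genes. The test takes its spread from all tissues.

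**Figure D5:**
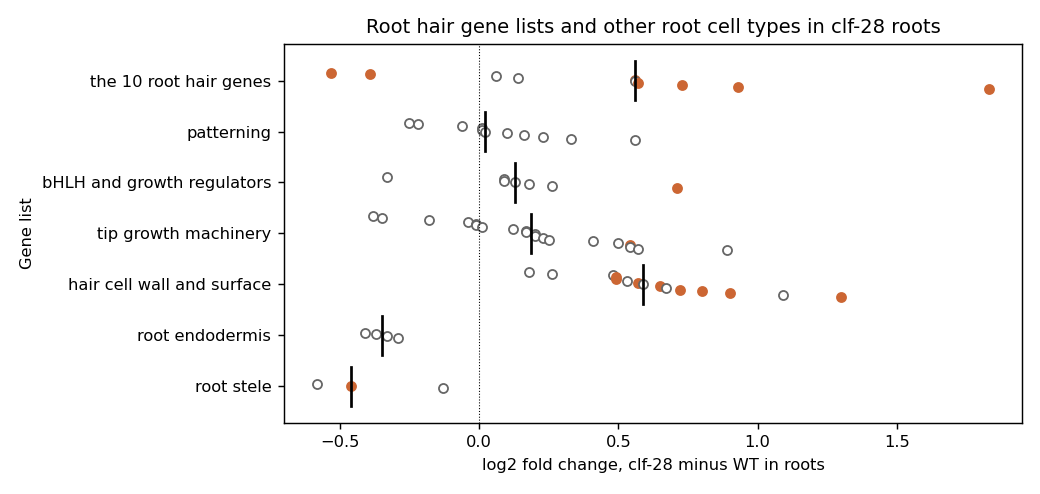
Change in clf-28 roots (log2 scale, horizontal axis) of each tested gene of the root hair lists and of the endodermis and stele markers, 1 row per list, with filled points where the adjusted p was under 0.05 and a black bar at the median. The hair cell wall and surface list lies wholly above 0, and the endodermis and stele markers wholly below.

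The lists of patterning, regulator and tip growth genes held the other 2 calls. Of 11 patterning genes, which decide which epidermal cells make hairs, 0 passed in roots by limma (2 were higher at an unadjusted p under 0.05) and the median was 0.02. WER (-0.25), which represses hair fate, TTG1 (0.01), SCM (0.01), JKD (-0.22) and GL2 (0.16) did not pass. CPC, which promotes hair fate, was at 10.3, 7.85 and 8.02 FPKM in WT and 14.1, 12.1 and 13.5 FPKM in clf-28, a difference of 0.56 that did not pass (adjusted p = 0.0724). In the list of basic helix-loop-helix and growth regulators 1 of 7 was higher, RSL5 (0.71, adjusted p = 0.000421), a relative of RSL4. RSL5 was at 0.111 to 0.664 FPKM in WT and 1.07 to 1.60 FPKM in clf-28. It reached 1 FPKM only in clf-28 roots, so it passed the filter on low values only through the group where it is high. Its call is therefore no independent support, and it was lost in a limma fit of the root libraries alone (adjusted p = 0.0595). LRL1 (0.09), LRL2 (-0.33), LRL3 (0.13), OBP4 (0.18), GTL1 (0.09) and DF1 (0.26) did not pass. Of 20 tip growth genes, the kinesin gene ARK1 (0.54, adjusted p = 0.0081) was the 1 that was higher by the test. The receptor kinase gene FER (0.89), RHD3 (0.20), SCN1 (-0.01) and ACT2 (-0.38) did not pass. FER was at 269, 293 and 309 FPKM in WT roots and 608, 582 and 438 FPKM in clf-28, without overlap. Of the 20 genes 7 lay higher and 1 lower without overlap, against 18.0% each way among all genes.

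Elsewhere the wider list gave 1 higher (OBP4, 1.10) and 2 lower (ROP2, -0.48, and ROP4, -0.53) in shoots and 1 lower in inflorescences (COBL9, -0.66), of 53 each, where 6.50% of all genes were higher and 4.11% lower in shoots and 2.18% lower in inflorescences. In siliques 7 of the 53 were higher and 5 lower, near or below the 12.2% and 16.4% of all genes. The higher genes were WER (1.44), AGP3 (1.33), LRL1 (1.26), CNGC14 (1.23), JKD (0.96), GL2 (0.75) and GL3 (0.46), and the lower ones MRH1 (-1.29), GTL1 (-1.06), ROP4 (-0.75), CPC (-0.72) and LRL2 (-0.63). GL2 turned to -0.27 with 24 libraries as labelled. The silique groups also differed in seed markers. The seed storage gene CRA1 was at 6270, 1.20 and 1.80 FPKM in WT siliques and at 18560 and 18340 FPKM in clf-28. Of 4 seed and embryo markers, 3 were higher and 1 lower by limma in clf-28 siliques. The part of these shifts in the silique changes was not tested.

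Markers of other cell types were read in the same root libraries. The 4 endodermis markers summed to 340.9 to 369.7 FPKM in WT roots and 255.9 to 280.8 FPKM in clf-28, and the 3 stele markers to 224 to 291.2 FPKM and 181.4 to 184.7 FPKM. Neither pair of ranges overlapped, although of these 7 markers only SHR (-0.46, adjusted p = 0.0231) passed the test. Meristem markers summed to 8.67 to 19.1 FPKM and 8.94 to 9.51 FPKM, and root cap markers to 6.87 to 14.7 FPKM and 8.57 to 10.8 FPKM, in overlapping ranges. The overlap came from WT roots replicate 1, at 8.67 and 6.87 FPKM. The other WT root libraries, at 16.2 and 19.1 FPKM for meristem and 14.7 and 14.2 FPKM for root cap, lay above every clf-28 library. Estimates ran from -0.52 to -0.42 for meristem and from -0.17 to -0.15 for root cap markers, and none passed the test. The 4 green leaf markers summed to 281.2 to 477.5 FPKM in WT and 151.3 to 186.3 FPKM in clf-28, with RBCS1A and PSBO1 lower by the test. Seed and embryo markers summed to 0.222 to 1.13 FPKM in WT roots and 6.76 to 22.0 FPKM in clf-28, mostly from the seed storage gene CRA1 (difference 3.41, adjusted p = 0.382). The part of these shifts in the changes of the root hair genes was not tested.

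Profiles over the 8 group means, each gene centred on its own mean, were compared by the root mean square difference on the log2(FPKM + 1) scale from the mean profile of the 10 genes. Among 9496 genes with a symbol, those nearest were RBOHB (0.09), FLS4 (0.09), CYP706A7 (0.10), RHS12 (0.11) and CYCP4;2 (0.11). Of these, RHS12 is on the wider list. Among the 10 genes EXPA18 and LRX1 were the closest to each other (0.08), then EXPA7 and LRX1 (0.13), EXPA7 and EXPA18 (0.15) and RHD6 and RSL4 (0.25). RSL1 stood farthest from its nearest, RSL2 (0.62).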

How the data were processed

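Strand-specific single-end RNA-seq was made from 24 libraries, 3 for each of 8 groups of genotype and tissue, which the labels and column names give. The authors deposited FPKM per locus and library. The submitters' processing notes name TAIR10 as the build and TopHat, Cufflinks and Cuffdiff as tools, whose versions are not given in the sources used here. The 48 columns of FPKM confidence bounds, also deposited, were not used. Of 34178 lines, 764 named no gene and were dropped, and 1312 named several genes. Low FPKM values showed no whole-read steps (the commonest bin of ratios between libraries held 0.958% to 2.04%), so no counts were recovered, depth stayed unknown, and no counting interval is given.

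Lines that reached 1 FPKM in 3 or more libraries (23847) were taken as log2(FPKM + 1), a scale that understates changes of low genes. The 22 libraries entered a single fit in limma 3.58.1 (R 4.3.3), in which each group had its mean and the prior on variance was robust and followed intensity, leaving 14 residual degrees of freedom. Tests were two-sided, adjusted by Benjamini-Hochberg over all lines tested, and called under 0.05. Simulated data with known changes were used to test the fit. The members and gene lists were chosen with earlier results of these data known. Named were all 10 members, the wider list's genes that passed a clf-28 contrast, and up to 4 more per list with the highest WT root level. AGP3 and COBL9 were named for their calls in other tissues. Alternatives were other pseudocounts, scalings, filters, libraries, a replicate block and leaving out each library.

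Upstream windows came from RefSeq's TAIR10.1 (Biopython 1.88, Python 3.11.15), whose loci overlapped 31175 of 31456 nuclear loci of the table. Same-numbered replicates of WT and clf-28 had correlations of their deviations from the group means between -0.20 and 0.13 across genes, so the numbers were not taken to pair samples.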

Additional observations from a re-analysis of the deposited data

Results flagged for a closer look

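In 5 of the 10 genes the clf-28 effect in roots differed from its mean in the other tissues by the limma test of that difference. RSL2 had -0.51, RSL4 0.62, PRP1 1.73, PRP3 1.17 and EXPA18 0.60 on the log2 scale. Among all genes 5.00% had a higher and 1.89% a lower effect in roots by this test. All of the 5 but PRP3 stayed below 1 FPKM outside roots, where the pseudocount of 1 FPKM holds log2 changes near 0. For these the difference therefore largely repeats the change in roots. With a pseudocount of 0.1 FPKM all 5 lost their calls (adjusted p of 0.356 for RSL2, 0.204 for RSL4, 0.231 for PRP1, 0.323 for PRP3 and 0.287 for EXPA18). PRP3 also lost its call without clf-28 roots replicate 1 (adjusted p = 0.0607) and with 24 libraries as labelled (adjusted p = 0.0684).

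In replicate 3 of clf-28 siliques, as labelled, which entered no test, PRP3 was at 1.88 FPKM and COW1 at 2.48 FPKM, above the highest WT silique values of 0.701 and 0.459 FPKM. The clf-28 shoot libraries in the tests had 1.06 and 1.26 FPKM of PRP3 and 3.13 and 2.79 FPKM of COW1.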

How the results depend on the processing

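With 22 libraries in groups of 2 or 3 and depth unknown, changes of genes under about 1 FPKM could not be measured well. Over the alternatives other than leaving out single libraries, 138 of 166 values of the 10 genes kept their direction and their side of the threshold, 26 lost the call, 1 gained it (LRX1 in roots with a pseudocount of 5 FPKM, 0.49, adjusted p = 0.0497) and 1 changed sign (RHD6 in roots, -0.05 without the WT replicate 1 libraries). The alternatives without WT replicate 1, and with a pseudocount of 0.1 FPKM in root libraries only, were chosen after seeing the data. With 24 libraries as labelled, 4 of the 10 genes passed in roots, 1 in shoots and 0 in inflorescences, GL2 in siliques was -0.27, and of the wider list 1 passed in shoots and 7 in siliques. A pseudocount of 0.1 FPKM left 1 of the 10 genes in roots, 0 in the root-against-others test, and 2 of the wider list in roots and 0 in inflorescences. With that pseudocount and only the root libraries 5 of the 10 passed. A pseudocount of 5 FPKM left 1 in shoots and 0 in inflorescences, and quantile normalization 0 in inflorescences. Fitting only the groups compared left 1 in shoots (2 genes then passed the filter) and 0 in inflorescences (none did), and of the wider list 0 in inflorescences and 1 in siliques. Without the WT replicate 1 libraries of all tissues the wider list had 20 calls in roots, 14 in shoots, 11 in inflorescences and 25 in siliques of 53, where 25.8%, 27.4%, 27.0% and 49.7% of all genes passed. The share of all genes that passed was not counted with the other pseudocounts or in the fits of only the groups compared. The causes were not tested.

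Leaving out 1 library at a time gave 5 to 7 calls among the 10 genes in roots, 0 to 2 in shoots, 0 to 1 in inflorescences, 0 in siliques and 4 to 6 in the root-against-others test. On the wider list the ranges were 5 to 14, 0 to 5, 1 to 2 and 8 to 19. RHD6 in roots ran from -0.05 to 0.18. Where this left 1 library in a group, that library was assumed to vary like the other groups. With the replicate block, 7 of the 10 genes passed in roots and 10 of the wider list, and no count moved by over 1.5 times. Quantile normalization moved the share of higher calls over all genes in roots from 71.3% to 54.5%, and median-of-ratios scaling in shoots from 61.2% to 50.6%. No result above has a test on counts, since read counts could not be recovered.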
